A study of Oryza sativa with 12 samples.

Results

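The comparison described here asks whether rice seedlings labelled as mutant for PKG, a cGMP-dependent protein kinase, responded to a cyclic GMP analogue differently from wild type seedlings. It used all 12 RNA-seq libraries of the series, which held total RNA of seedlings of cultivar ZH11, 14 days old, grown under 12 h of light and 12 h of dark. The 4 groups, with 3 libraries each, were pkg seedlings given 10 µM Br-cGMP for 5 h (pkg Br-cGMP), pkg seedlings without it (pkg control), wild type seedlings given the same dose for the same time (wild type Br-cGMP) and wild type seedlings without it (wild type control). The pkg genotype is labelled PKG-/-. The labels give neither the altered part of the gene nor the number of independent lines, so the mutant libraries may come from 1 line, and the controls are described only as not receiving Br-cGMP.

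The genes described are the reference genes (identifiers beginning OS) with a mean of at least 5 FPKM over the 12 libraries. FPKM is a read number scaled to the length of the gene and the size of the library. This rule kept 8274 of 37830 reference genes, in files that list 112071 features in all. The member nearest the limit had a mean of 5.0002 FPKM and the gene just outside it 4.9999 FPKM. The median member stood at 29.2 FPKM, 860 members had a symbol in the files, and 8273 passed the filter of the test, 1 FPKM in at least 3 libraries. The value examined for each gene was the difference of the responses: the Br-cGMP minus control difference in pkg, minus the same difference in wild type, on the log2(FPKM + 1) scale. A positive value means that the change with Br-cGMP was more upward, or less downward, in pkg than in wild type.

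Cyclic GMP is a second messenger made by guanylyl cyclases, and Br-cGMP is a brominated analogue used to mimic it inside cells. In animals a main receptor of cyclic GMP is the protein kinase PKG, which phosphorylates other proteins when the nucleotide is bound. In cereals gibberellin is sensed by the receptor GID1, which leads to the destruction of the DELLA repressor SLR1 and so frees GAMYB, a transcription factor known from hydrolase genes of the grain. The series title places plant PKG in this pathway, at the nuclear localization of GAMYB.

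No member gene was called as responding differently in the 2 genotypes. With limma over 25238 features and Benjamini-Hochberg adjustment, 0 of 8273 members passed an adjusted p of 0.05 for the difference of the responses, and the smallest adjusted p of a member was 0.9999. Over all features 1 passed (0.00396% of those tested), a short low-count feature described below. At an unadjusted p under 0.05 there were 58 members, 35 positive and 23 negative, which is 0.701% of them, against 2.07% of all features tested. If no gene differed and p-values were evenly spread, 413.7 members would be expected at that p. The p-values were thus not evenly spread here, and so low a number is not evidence for equal responses. It was 37 without wild type Br-cGMP 1 and 256 without pkg Br-cGMP 1. The cause was not tested. With limma-voom on reads recovered from the values the counts were 0 members past the threshold and 59 at an unadjusted p under 0.05. These p-values rest on the spread between the 3 libraries of a group, which the series calls biological repetitions without saying how the plants were divided.

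The precision behind this count was limited. The median standard error of the difference of the responses over members was 0.46, and the median 95% interval reached 1.01 to either side of the estimate, about a factor of 2 in the ratio of fold changes. That interval lay within -1 and 1 for 2580 members (31.2%) and within -2 and 2 for 6130 (74.1%). The estimates themselves had a median of -0.03 and quartiles of -0.31 and 0.22, and 770 members (9.31%) were beyond 1 in size. Replicates of the pkg groups were farther apart: the median within-group SD over members on the log2 scale was 0.42 in pkg Br-cGMP and 0.38 in pkg control, against 0.28 in wild type Br-cGMP and 0.34 in wild type control.

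Each response alone also gave 0 members past the threshold with limma (0% of all features in pkg and 0% in wild type). In pkg 194 members had an unadjusted p under 0.05, 141 above and 53 below control, where 2.71% of all features did so. In wild type there were 456, 356 above and 100 below, where 5.33% of all features did so. Limma-voom gave 0 past the threshold in both genotypes, with 196 and 448 at an unadjusted p under 0.05. These numbers hang on single libraries: the pkg number was 961 without pkg Br-cGMP 1, above the 536 of wild type under the same setting, and 364 without pkg control 2. That of wild type was 202 without wild type Br-cGMP 2 and 275 without wild type control 3, and 266 without the 3 libraries low in root genes that are described below, where pkg had 137. No order of the genotypes is read from them. Differences beyond 1 in size were seen for 398 members in pkg and 828 in wild type, or 294 and 672 without those 3 libraries. These counts are not a test that the response was smaller in pkg, which is the difference of the responses given above.

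The responses in pkg and in wild type, which use separate libraries, leaned the same way, mainly among members above control. Over the 8273 members they correlated at a Pearson r of 0.37 and a Spearman rho of 0.37, and 5137 members (62.1%) had the same sign in both. These figures describe genes, which are not independent replicates. Libraries low in root genes occur in both pkg groups but only in the control of wild type. The correlations and the share of equal signs were not computed without them. All 74 members with an unadjusted p under 0.05 in both genotypes had the same direction. The matching numbers over all features tested were not computed, here or for the shared numbers that follow. Of the 141 members above control at that level in pkg, 133 were also above it in wild type, with a median of 0.94 in pkg and 0.78 in wild type. Of the 356 above control in wild type, 333 were also above it in pkg, with medians of 0.52 in pkg and 1.11 in wild type. A median tends to be smaller in the genotype that did not choose the genes, so the 2 medians of a pair do not measure a difference. Among members below control, 41 of 53 chosen in pkg were also below control in wild type, and 56 of 100 chosen in wild type were below it in pkg. Without the 3 libraries low in root genes, which changes the members chosen, the shared numbers were 82 of 98 and 177 of 209 above control, and 21 of 39 and 17 of 57 below it. Most members below control in wild type were thus not below it in pkg in that setting.

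**Figure D1:**
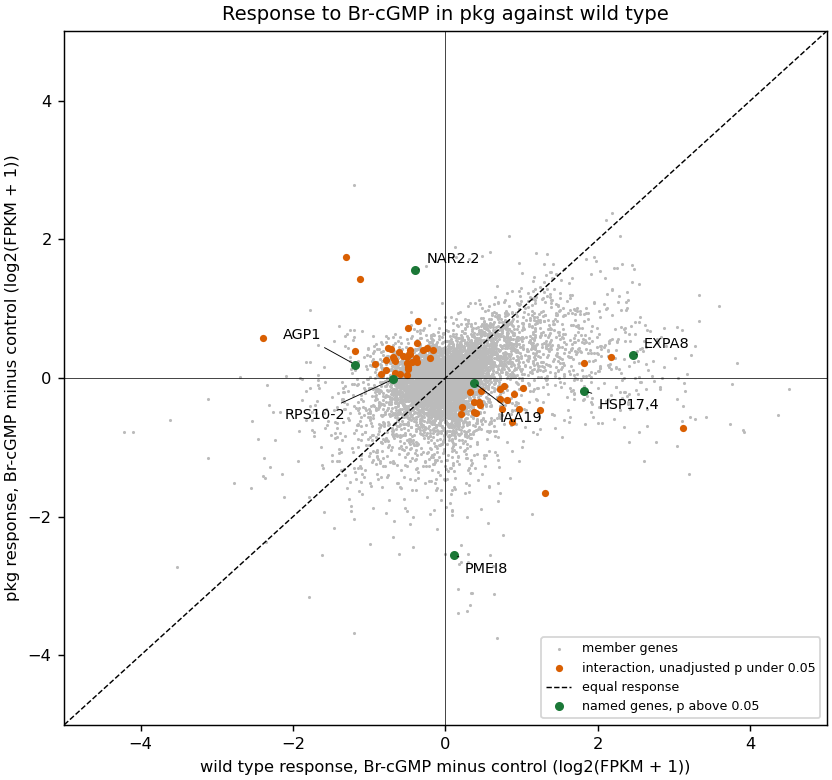
The response in pkg (vertical) plotted against the response in wild type (horizontal) for 8273 member genes, both as Br-cGMP minus control on the log2(FPKM + 1) scale; orange marks the 58 members with an unadjusted p under 0.05 for the difference of the responses and green marks 7 named genes above that p. Most points lie near the origin, the orange points lie mainly in the 2 quadrants where the responses have opposite signs, and none of them passed the adjusted threshold.

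Members whose 3 Br-cGMP values all lay on 1 side of the 3 control values numbered 321 in pkg (3.88%, against 5.12% of all features tested) and 1342 in wild type (16.2%, against 13.7% of all features). Both pairs of groups were separated upward in 57 members (0.689%, against 0.472% of all features tested) and downward in 8 (0.0967%, against 0.147%). Opposite separations were found in 7 members (0.0846%, against 0.155%), 6 above control in pkg and below it in wild type, and 1 the other way. None of these 7 had a symbol in the files.

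The next named genes were picked because their Br-cGMP responses were of like size in both genotypes, and are examples only. None of their responses passed the adjusted threshold in either genotype. NAC67, a stress-related transcription factor, had 55.2, 68.8 and 105 FPKM in pkg Br-cGMP and 23.5, 35.8 and 34.1 in pkg control, against 53.5, 65.3 and 96.8 in wild type Br-cGMP and 21.3, 26 and 39.3 in wild type control. The groups did not overlap in either genotype, and the responses were 1.24 ± 0.32 in pkg and 1.29 ± 0.32 in wild type, a difference of -0.05 (95% interval -1.06 to 0.97). PHT1-1, a phosphate transporter, had 232, 472 and 480 FPKM in pkg Br-cGMP and 135, 222 and 155 in pkg control, against 204, 327 and 217 in wild type Br-cGMP and 112, 102 and 125 in wild type control. Both genotypes were again separated, with responses of 1.16 ± 0.31 in pkg and 1.11 ± 0.31 in wild type, and a difference of 0.05 (-0.93 to 1.03). DREB1A, a cold and drought factor, gave 1.57 ± 0.66 in pkg and 1.55 ± 0.66 in wild type, a difference of 0.02 (-2.06 to 2.1), although 1 pkg control library held 54.1 FPKM and the other two 5.79 and 8.77. These intervals allow differences of up to about 1 for the first 2 genes and 2 for DREB1A, so equal responses were not shown.

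The 58 members of smallest p, none with a symbol, were chosen by the difference of the responses, which favours responses of opposite sign and groups that do not overlap, so the next values describe them and support nothing. Signs were opposite in 56, and the larger response was in wild type for 44 and in pkg for 14. Their pkg groups did not overlap in 14 cases and their wild type groups in 38, with both separated in 4 and neither in 10, where 5.12% and 13.7% of all features tested were separated. They were expressed at a median of 19.7 FPKM and their differences of the responses were 0.49 to 3.83 in size, a range that their selection by p fixes in part. They lay on 11 of the 12 chromosomes, with 13 of the 1181 members on chromosome 3, 9 of 735 on chromosome 5 and 7 of 440 on chromosome 9. Without the 3 libraries low in root genes 15 of the 58 were still at an unadjusted p under 0.05, out of 75 members at that p.

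OS09G0538000 (chromosome 9, 21165219 to 21167647, minus strand, in coordinates of the authors' files, whose genome build the labels do not state) had the smallest p among members (0.0025). It stood at 54.2, 45.2 and 69.1 FPKM in pkg Br-cGMP and 68.5, 43.2 and 16.7 in pkg control, against 23.5, 8.68 and 27.8 in wild type Br-cGMP and 136.3, 101 and 70.2 in wild type control. The wild type values were lower with Br-cGMP without overlap, while those of pkg overlapped and lay between the 2 wild type groups on average. The responses were 0.57 ± 0.53 in pkg and -2.40 ± 0.53 in wild type, and their difference was 2.97 ± 0.75 (limma, adjusted p = 0.9999). With single libraries left out the difference was 2.42 to 3.40, and without the 3 libraries low in root genes 2.50. OS09G0414701, on the same chromosome (14812756 to 14813623), had 6.78, 5.01 and 13.9 FPKM in pkg Br-cGMP and 4.79, 6 and 6.76 in pkg control, against 1.54, 1.59 and 1.71 in wild type Br-cGMP and 3.2, 6.63 and 5.49 in wild type control. Here too the wild type groups were separated, those of pkg overlapped, and the low values were those of wild type Br-cGMP (difference 1.56 ± 0.49, unadjusted p = 0.00881).

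In the other direction, OS03G0103400 (chromosome 3, 235340 to 238039) is the 1 member with pkg below and wild type above its control without overlap. It had 4.79, 5.64 and 6.29 FPKM in pkg Br-cGMP and 6.91, 7.19 and 7.04 in pkg control, against 5.84, 5.77 and 4.9 in wild type Br-cGMP and 3.24, 1.87 and 4.03 in wild type control. The values with Br-cGMP overlapped between the genotypes and those of the controls did not (difference -1.02 ± 0.33, unadjusted p = 0.0114). OS02G0240100 (chromosome 2, 7938411 to 7939811) had 1.39, 10.3 and 21.2 FPKM in pkg Br-cGMP and 27.8, 29.6 and 20.3 in pkg control, against 16, 9.67 and 27.4 in wild type Br-cGMP and 10.6, 3.64 and 5.34 in wild type control. Both pairs of groups overlapped, and the replicates with Br-cGMP were far apart (difference -2.96 ± 1.01, unadjusted p = 0.0143). All 4 genes kept their sign in the 25 alternative settings, as did all 58 members at an unadjusted p under 0.05. Choice by this difference favours that, and some settings leave the estimates unchanged, so it says nothing particular about these 4 genes. None has a name in the files, so nothing can be said of what they encode.

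Libraries differed in the levels of tissue marker genes, and some values given below change when libraries low in root genes are left out. LSI2 and NIP2-1, silicon transporters of roots, the aquaporin gene PIP2-3 and OS02G0662000 sum to 198, 3422 and 13.9 FPKM in pkg Br-cGMP and 1243, 948 and 6.91 in pkg control, against 1660, 2246 and 1972 in wild type Br-cGMP and 852, 1151 and 16.1 in wild type control. The third library of every group but wild type Br-cGMP was near 0 for these genes, and pkg Br-cGMP 1 was low as well. A second list of 5 root-expressed genes (NIP2-2, PHT1-8, MT4C, AMT1-2 and AMT1-3) summed to 77.9 to 110 FPKM in those 3 libraries and to 897 to 6325 FPKM in the other 9. Of 7 listed markers of dividing tissue 5 have a symbol in the files, of which MCM2 and MCM7 were at 0 in every library. The other 3 summed to 107 to 139 FPKM in pkg Br-cGMP and 105 to 135 in pkg control, against 88.5 to 92.1 in wild type Br-cGMP and 97.8 to 172 in wild type control. MCM3, a DNA replication helicase subunit among them, stood at 30.5 FPKM in wild type control 2, at 21.1 and 20.1 in the first pkg Br-cGMP and pkg control libraries, and at 0.849 to 4.78 in the other 9. Of 9 green shoot markers 3 have a symbol in the files, with CAB1R and CAB2R at 0 and RBCS at 562 to 4654 FPKM. The 3 libraries near 0 for root genes were set apart by these values and are not a group of the study. In whole seedlings fewer cells of a type and less RNA per cell cannot be told apart. The reads assigned to features ranged from 6667261 to 9438909 per library.

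**Figure D2:**
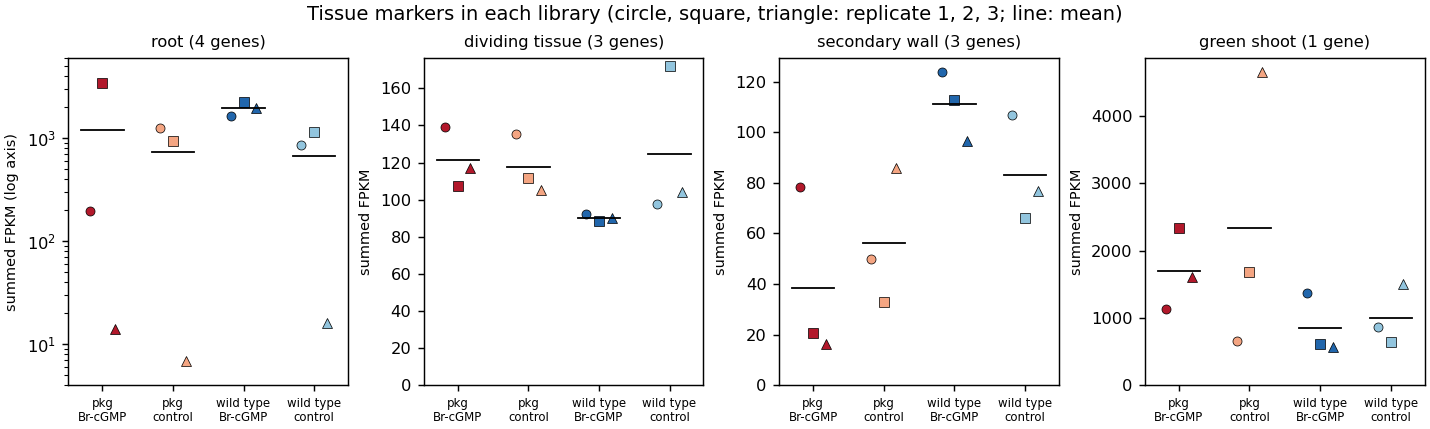
Summed FPKM of marker genes in each of the 12 libraries, in 4 groups from pkg Br-cGMP on the left to wild type control on the right, with replicates as circle, square and triangle and the group mean as a line; the root panel has a log axis. The root sum was 6.91 to 16.1 FPKM in 3 libraries of 3 different groups and 198 to 3422 FPKM in the other 9.

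The targeted locus and the gibberellin genes gave no difference of the responses beyond its error. OS02G0281000 (chromosome 2, 10419062 to 10428014), the identifier taken for PKG, has no symbol in the files. Its values were 9.03, 3.68 and 8.61 FPKM in pkg Br-cGMP and 7.2, 9.22 and 9.29 in pkg control, against 6.56, 4.65 and 5.95 in wild type Br-cGMP and 7.09, 5.93 and 7.02 in wild type control. Its level was thus not lower in the libraries labelled pkg, and since the altered part of the gene is not stated it checks nothing about the labels. The difference of the responses was -0.11 ± 0.42, and it turned to 0.25 without pkg Br-cGMP 2. SLR1 had 325, 243 and 298 FPKM in pkg Br-cGMP and 536, 248 and 309 in pkg control, against 309, 283 and 354 in wild type Br-cGMP and 403, 487 and 447 in wild type control. Only the wild type groups were separated, all 3 Br-cGMP libraries being lower (-0.50 ± 0.26 in wild type and -0.27 ± 0.26 in pkg), and the difference of 0.23 ± 0.37 was -0.01 without pkg control 2. GID1 gave 0.02 ± 0.21 in pkg and 0.24 ± 0.21 in wild type, a difference of -0.23 (95% interval -0.89 to 0.44). CYP714D1, which inactivates gibberellins, gave -0.97 (-4.61 to 2.67) and was at 2.48, 3.12 and 3.59 FPKM in the 3 libraries low in root genes. GAMYB itself lay between 0.338 and 1.98 FPKM in single libraries, below the level of the members, and was not tested.

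Of the 859 tested members with a symbol, the smallest unadjusted p was 0.0527, so none of those named from here on reached an unadjusted p of 0.05 for the difference of the responses. The 15 of smallest p in each direction are given because they are the named genes with the largest differences for their error, and each has an adjusted p of 0.9999 (limma).

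The 15 with a positive difference included genes whose wild type mean was lower with Br-cGMP. RPS20, a protein of the small ribosomal subunit, had 228, 224 and 228 FPKM in pkg Br-cGMP and 228, 188 and 214 in pkg control, against 155, 167 and 198 in wild type Br-cGMP and 189, 335 and 215 in wild type control. The high value of 335 FPKM came from wild type control 2, the library with the highest MCM3, and the difference was 0.58 ± 0.30 with all libraries and at its lowest 0.34 with 1 left out. RPS10-2, another ribosomal protein gene, gave 0.67 ± 0.32, and its wild type values with Br-cGMP (17.3 to 22.6 FPKM) lay below those of its control (28.1 to 44.6 FPKM). The histone gene H2B1 had 104, 98.4 and 115 FPKM in pkg Br-cGMP and 104, 107 and 104 in pkg control, against 86.5, 79.5 and 81.2 in wild type Br-cGMP and 95, 121 and 101 in wild type control. It differed little between replicates, and the 3 wild type Br-cGMP libraries were the 3 lowest of the 12 (difference 0.36 ± 0.20). Others with a lower wild type mean under Br-cGMP and a pkg response near or above 0 were TIM13, a mitochondrial import chaperone (0.63 ± 0.32), COPZ1, a coat protein of secretory vesicles (0.61 ± 0.34), PRXIIE-1, a peroxiredoxin (0.59 ± 0.34), PP2A4, a protein phosphatase catalytic subunit (0.48 ± 0.25), and GSK4, a kinase of the family that restrains brassinosteroid signalling (0.35 ± 0.20). AGP1, an arabinogalactan protein gene, gave 1.38 ± 0.78, with 139 FPKM in wild type control 2 and 20 to 48.7 FPKM in the other 5 wild type libraries.

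In the other genes with a positive difference, except SWEET2B, the response was larger in pkg than in wild type in size. CAD8D, of the cinnamyl alcohol dehydrogenase family that makes lignin alcohols, had 58, 102 and 78.6 FPKM in pkg Br-cGMP and 33.3, 38.5 and 36.3 in pkg control, against 35.2, 64.7 and 43.6 in wild type Br-cGMP and 40.7, 29.9 and 36.1 in wild type control. Only the pkg groups were separated, at 1.08 ± 0.26 in pkg and 0.38 ± 0.26 in wild type (difference 0.70 ± 0.37). NAR2.2, a partner protein of high-affinity nitrate transporters, had 6.25, 29.3 and 15.8 FPKM in pkg Br-cGMP and 1.34, 3.99 and 11.5 in pkg control, against 13.5, 14.1 and 6.86 in wild type Br-cGMP and 9.01, 13.8 and 25.4 in wild type control. The groups overlapped in both genotypes, and the difference was 1.95 ± 0.95. PURA1, an enzyme of adenine nucleotide synthesis, had 32.2 to 44.1 FPKM in pkg Br-cGMP and 28.7 to 30.9 in pkg control, with overlapping wild type groups (0.65 ± 0.31). MOCS2 of molybdenum cofactor synthesis (0.55 ± 0.28) and CCMH of cytochrome c assembly (0.55 ± 0.32) had overlapping groups in both genotypes. The sugar transporter gene SWEET2B (1.34 ± 0.66) completed the 15, with a response of 0.58 in pkg and -0.76 in wild type, where wild type control 3 held 15 FPKM and the other two controls 4.14 and 5.06.

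Among the 15 with a negative difference, 8 had their wild type values with Br-cGMP above control without overlap beside overlapping pkg values. Choice by this difference favours that pattern, so the count supports nothing. It was found in 920 of all 8273 members. Over all features tested the share of this same pattern was not computed. Separated wild type groups, in either direction and whatever the pkg values, were found in 13.7% of them. EXPA8, an expansin that loosens cell walls, had 3.75, 15 and 2.82 FPKM in pkg Br-cGMP and 6.44, 6.75 and 1.56 in pkg control, against 18.9, 15.5 and 14.3 in wild type Br-cGMP and 0.957, 6.96 and 0.914 in wild type control. The 3 wild type Br-cGMP libraries exceeded all wild type controls, whereas the high pkg value came from pkg Br-cGMP 2, the library with the highest root sum. The responses were 0.33 ± 0.69 in pkg and 2.46 ± 0.69 in wild type, a difference of -2.14 ± 0.98 (unadjusted p = 0.0527), and -1.92 without the 3 libraries low in root genes. Auxin signalling is held back by the Aux/IAA proteins, and 3 of their genes were among the 15. IAA19 had 75.9, 89.9 and 89.9 FPKM in pkg Br-cGMP and 83.6, 90.6 and 93.1 in pkg control, against 96.5, 93.1 and 94 in wild type Br-cGMP and 81.1, 63.8 and 74.4 in wild type control. Its replicates were close, and the wild type groups did not overlap (difference -0.44 ± 0.21). IAA1 (-0.72 ± 0.38) and IAA9 (-1.29 ± 0.70) likewise had their wild type values above control without overlap, and overlapping pkg values.

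The remaining negative genes were of mixed function. SPL19, a transcription factor of the SQUAMOSA promoter-binding family, had 7.81, 27 and 8.51 FPKM in pkg Br-cGMP and 21.2, 18.9 and 5.93 in pkg control, against 24.8, 31.5 and 30.2 in wild type Br-cGMP and 12.2, 14.6 and 7.96 in wild type control. The wild type groups were separated and the pkg values spread over both of them (-1.40 ± 0.73). RR26, a response regulator of cytokinin signalling (-0.71 ± 0.35), the chitinase gene CHT10 (-1.17 ± 0.68) and ATG8B of autophagy (-0.44 ± 0.27) also had wild type Br-cGMP above control without overlap. SODCP, a chloroplast superoxide dismutase, was different in that the pkg groups were the ones apart, with 89.8, 74.2 and 66.9 FPKM in pkg Br-cGMP and 142, 106 and 121 in pkg control, against 148, 151 and 115 in wild type Br-cGMP and 212, 126 and 86.3 in wild type control (-0.73 ± 0.41). HSP17.4, a small heat shock protein gene, gave -2.01 ± 0.94, and -1.01 without the 3 libraries low in root genes, of which wild type control 3 held 0.181 FPKM while the other wild type controls held 2.84 and 5.35. SAP8, a stress-associated zinc finger gene (-1.01 ± 0.57), GDH1, a glutamate dehydrogenase (-1.13 ± 0.68), and PMEI8, a pectin methylesterase inhibitor (-2.67 ± 1.67), had overlapping groups in both genotypes. So did CESA4 (-1.15 ± 0.69) and CESA9 (-1.20 ± 0.73), cellulose synthases of secondary walls, which were at -0.39 and -0.46 without the 3 libraries low in root genes.

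**Figure D3:**
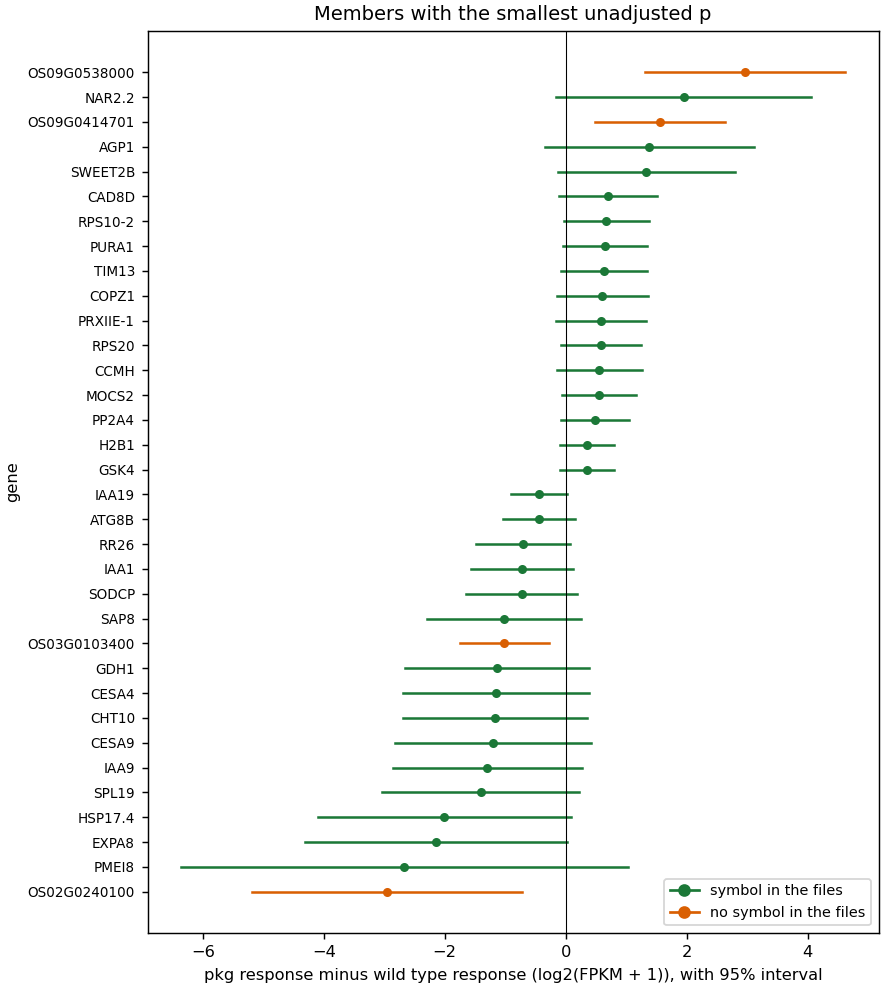
Difference of the responses, pkg minus wild type, for the 30 named members and the 4 without a symbol, as points with 95% intervals on the log2(FPKM + 1) scale, ordered from positive at the top to negative at the bottom. The intervals of all 30 named genes include 0, and those of the 4 without a symbol do not, at unadjusted p values of 0.0025 to 0.0143 and an adjusted p of 0.9999.

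**Figure D4:**
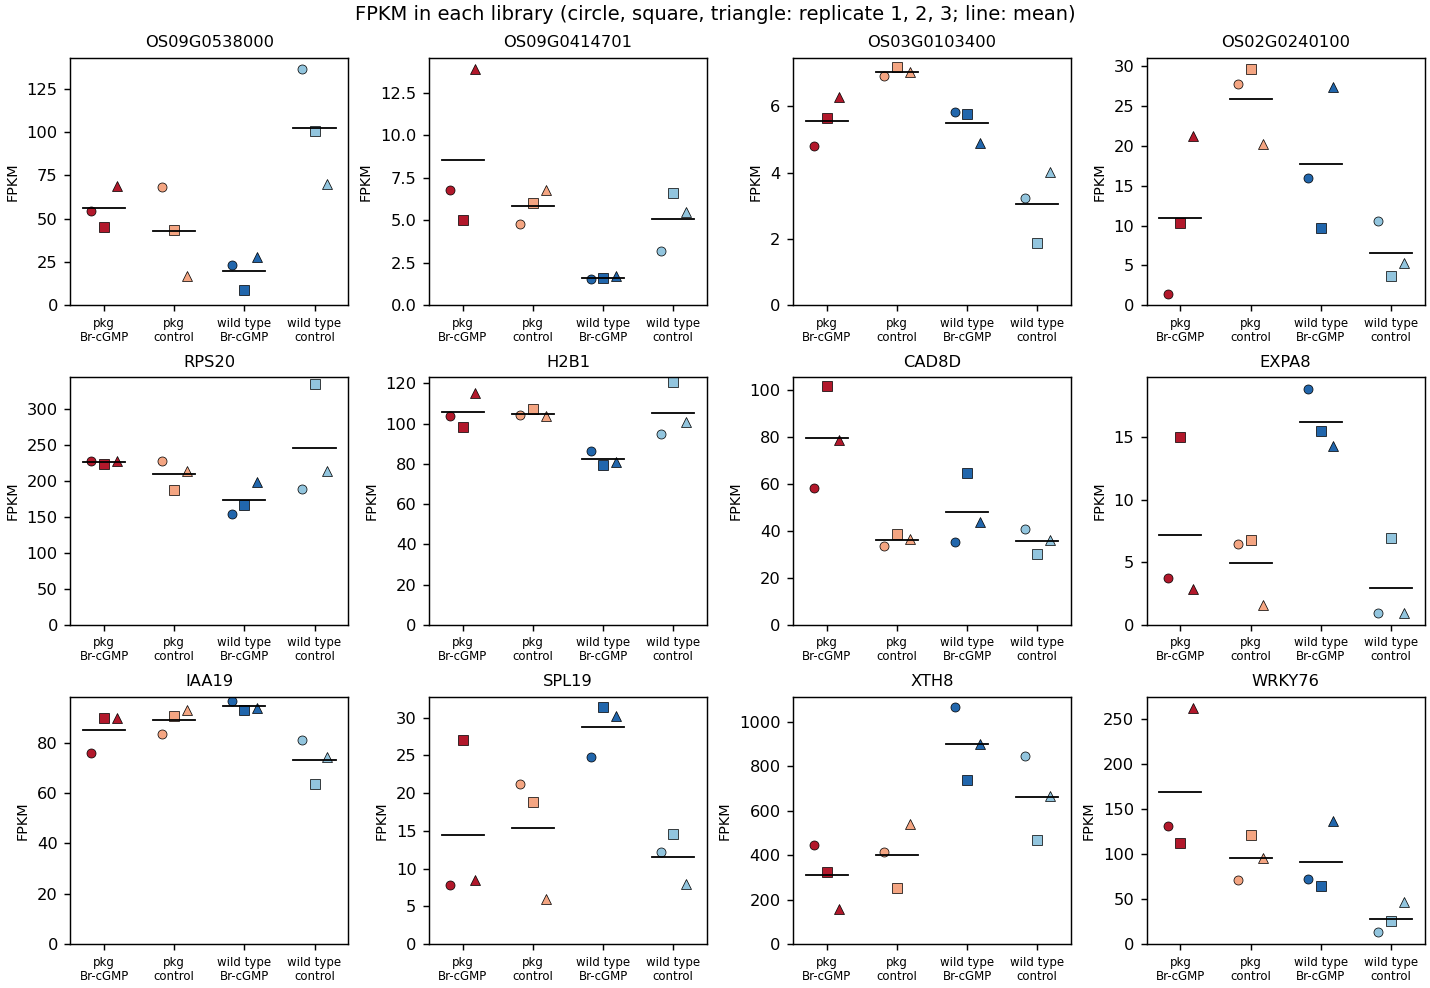
FPKM of 12 genes in every library, in 4 groups from pkg Br-cGMP on the left to wild type control on the right, with replicates 1 to 3 as circle, square and triangle and the group mean as a line. OS09G0538000, OS09G0414701, H2B1, EXPA8, IAA19 and SPL19 show separated wild type groups beside overlapping pkg groups.

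Growth and division genes, taken as lists of symbols, lay mostly on the positive side. Of 22 members for DNA replication, the cell cycle and histones, 19 had a positive difference, with a median of 0.56 against -0.03 over all members, and 0 passed the test. Their median response was 0.06 in pkg and -0.52 in wild type, where 3 of 22 were above control. POLD1, a DNA polymerase subunit gene, gave 0.68 ± 0.58. H2B.10, a histone gene, had 55.4, 18.4 and 14.8 FPKM in pkg Br-cGMP and 48.7, 21.2 and 9.9 in pkg control, against 13.1, 10.7 and 21.6 in wild type Br-cGMP and 17.3, 99.3 and 16.6 in wild type control. The 3 high values of H2B.10 were those of the first library of each pkg group and of wild type control 2, the same libraries that were high in MCM3. The list median was 0.06 without wild type control 2, 0.15 without pkg control 3, 0.36 without pkg control 2 and 0.12 without pkg Br-cGMP 1. Higher medians were found without pkg control 1 (1.05) and were 1.00 without pkg Br-cGMP 3, 0.95 without wild type control 1 and 0.94 without the 3 libraries low in root genes. It kept its sign but moved with single libraries, and the part of tissue make-up in it was not tested.

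Of 17 ribosomal protein genes 13 were positive, with a median of 0.32, at -0.03 in pkg and -0.34 in wild type, and 0 passed the test. RPS26, of the small ribosomal subunit, gave 0.64 ± 0.46, with 588 FPKM in wild type control 2 and 304 and 298 FPKM in the other wild type controls. The files give symbols alone, so the location of these proteins in the cytosol was not checked. The median was 0.01 without wild type control 2, 0.13 without pkg Br-cGMP 1, 0.15 without pkg control 2, 0.51 without pkg control 1 and 0.55 without the 3 libraries low in root genes. Kinesin, tubulin, actin and formin genes, of the cytoskeleton, had 10 of 17 positive with a median of 0.29, which was -0.14 without wild type control 2 or without pkg control 2 and -0.13 without pkg Br-cGMP 1. TUBB2, a beta-tubulin gene of that list (1.31 ± 1.07), was at 21.1 FPKM in wild type control 2 and at 15.9 and 12.3 in the first pkg libraries, against 2.29 to 6.23 FPKM elsewhere.

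Cell wall genes lay on the negative side. Of 12 expansin and xyloglucan enzyme members 11 had a negative difference, with a median of -0.73, at -0.26 in pkg and 0.71 in wild type, and 0 passed the test. XTH8, a xyloglucan enzyme gene of growing tissue, had 445, 326 and 159 FPKM in pkg Br-cGMP and 415, 252 and 540 in pkg control, against 1070, 738 and 901 in wild type Br-cGMP and 847, 469 and 666 in wild type control. All pkg values but 1 were under all wild type values, and neither pair of treatment groups was separated (-0.90 ± 0.57). EXPB8 gave -2.71 ± 2.16, with 0 FPKM in pkg Br-cGMP 3, 5.47 in pkg control 3 and 8.96 in wild type control 3, the lowest library of each of those groups. EXPB4 gave -1.09 ± 0.86 and 0.01 without the 3 libraries low in root genes. The list median was -0.16 without those 3 libraries and -0.48 to -1.20 with single libraries left out. Of 13 cellulose synthase members 8 were negative, with a median of -0.48 that was 0.01 without the 3 libraries and 0.08 without pkg Br-cGMP 3 alone. The secondary wall genes CESA4, CESA7 and CESA9 sum to 78.6, 20.5 and 16.4 FPKM in pkg Br-cGMP and 50, 32.8 and 85.9 in pkg control, against 124, 113 and 96.6 in wild type Br-cGMP and 107, 66.1 and 76.8 in wild type control. They were lower in pkg Br-cGMP than in wild type Br-cGMP throughout, but overlapped between the treatments of each genotype.

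Transport and lignin lists were also mostly negative, some of them only with the libraries low in root genes included. Aquaporins had 12 of 16 members negative, with a median of -0.45, and -0.03 without those 3 libraries. NIP2-1 gave -2.08 with a standard error of 2.80, and NIP2-2, the second silicon channel of the family, -0.92 ± 0.59. Metal homeostasis genes had 16 of 22 negative (median -0.24, and -0.09 without the 3 libraries), with NAS3, a nicotianamine synthase, at -0.68 ± 0.49 and MT1B, a metallothionein, at -1.14 ± 1.04 and 0.04 without them. Phenylpropanoid and lignin genes had 13 of 17 negative with a median of -0.36, the same without the 3 libraries. CAD2, a cinnamyl alcohol dehydrogenase, had 129, 249 and 91.4 FPKM in pkg Br-cGMP and 150, 161 and 130 in pkg control, against 249, 281 and 229 in wild type Br-cGMP and 143, 166 and 180 in wild type control. Its wild type groups were separated and its pkg groups were not (-0.66 ± 0.43). None of these lists had a member past the threshold.

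The jasmonate, WRKY, NAC, DREB and ERF, diterpenoid phytoalexin and chitinase lists had a median response above 0 in both genotypes, while heat shock genes had -0.03 in pkg (8 of 18 above control) and 0.18 in wild type (12 of 18). The 16 jasmonate members had a median response of 0.20 in pkg, with 14 above control, and of 0.66 in wild type, with 12 above control, and 11 of their differences were negative (median -0.19). That median was 0.002 without wild type control 2, -0.02 without pkg Br-cGMP 1 or without wild type Br-cGMP 3, -0.47 without wild type Br-cGMP 1 and -0.59 without the 3 libraries low in root genes. TIFY11B, a jasmonate-induced repressor gene, had 31.8, 40.1 and 87.7 FPKM in pkg Br-cGMP and 20.8, 32.6 and 16.2 in pkg control, against 95.1, 55.5 and 206 in wild type Br-cGMP and 38.2, 18.7 and 24.5 in wild type control. Wild type was separated and pkg overlapped in 1 library, and the difference was -0.86 (95% interval -2.49 to 0.76). All 3 WRKY members and all 3 NAC members were above control in both genotypes. WRKY76, known in rice as a repressor of defence genes, had 131, 112 and 262 FPKM in pkg Br-cGMP and 71.1, 121 and 95.6 in pkg control, against 72.6, 64.4 and 136.2 in wild type Br-cGMP and 13, 25.9 and 46.5 in wild type control. Its level was already high in pkg control, and its response was 0.74 ± 0.48 in pkg and 1.74 ± 0.48 in wild type (difference -1.0 ± 0.68). The 5 diterpenoid phytoalexin members had medians of 0.88 in pkg and 2.11 in wild type, and 4 had a negative difference (median -1.11, and -0.08 without the 3 libraries low in root genes). KSL4, a diterpene synthase gene of that list, had 3.35, 2.95 and 3.97 FPKM in pkg Br-cGMP and 0.503, 4.64 and 0.28 in pkg control, against 14.1, 10.2 and 20.9 in wild type Br-cGMP and 0.0776, 11.6 and 2.37 in wild type control. The values of both controls were scattered, and the difference was -1.12 ± 1.14. Chitinase and pathogenesis-related genes had 5 of 8 negative (median -0.12, and -0.43 to 0.22 with single libraries left out), with CHT8 at -1.26 ± 0.82.

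**Figure D5:**
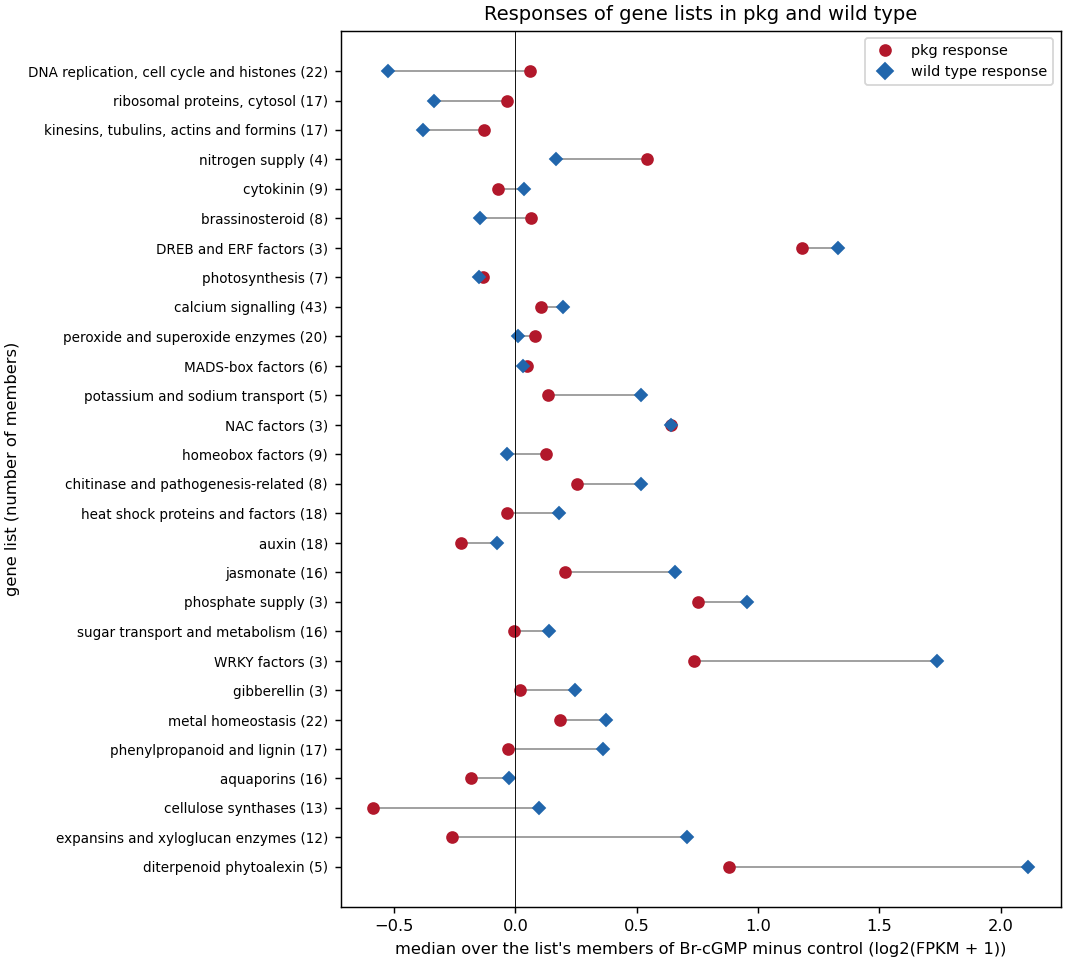
Median response to Br-cGMP in pkg (circles) and wild type (diamonds) for each list with at least 3 members, on the log2(FPKM + 1) scale, ordered by the median difference of the responses from positive at the top to negative at the bottom. The wild type median lies left of the pkg median for the DNA replication and ribosomal lists (-0.52 and -0.34 in wild type) and right of it for the expansin list (0.71), and the NAC medians coincide at 0.64.

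The other lists had medians nearer 0 or few members. Calcium signalling, with 43 members, was balanced at 21 positive and 22 negative and a median of -0.005, with CPK10, a calcium-dependent kinase, at -0.58 ± 0.39. Photosynthesis genes (7 members) had a median of 0.003, with RBCS, the small subunit of Rubisco, at 0.18 ± 0.92. Auxin genes were negative in 12 of 18 (median -0.15), sugar transport and metabolism in 13 of 16 (-0.21), heat shock proteins and factors in 13 of 18 (-0.15) and peroxide and superoxide enzymes in 11 of 20 (-0.03). Homeobox factors were negative in 5 of 9 (-0.08), MADS-box factors in 4 of 6 (-0.04), potassium and sodium transport in 3 of 5 (-0.04), phosphate supply in 2 of 3 (-0.19) and gibberellin genes in 2 of 3 (-0.23). Positive medians were seen for nitrogen supply (0.25, 3 of 4 positive), cytokinin (0.21, 6 of 9), brassinosteroid (0.13, 5 of 8) and the DREB and ERF factors (0.02, 2 of 3). The WRKY median was -0.21, the NAC median -0.05 and that of 2 members for abscisic acid and protein phosphatases 2C -0.08, and no member of the clock and light receptor list reached the level of the members. No list held a gene past the adjusted threshold or at an unadjusted p under 0.05. Of the 29 lists with members, 8 kept the sign of their median in every alternative setting: DNA replication, ribosomal proteins, expansins, phenylpropanoid, auxin, sugar, metal homeostasis and heat shock genes. Some of these settings change the errors and not the estimates, so no median can move there.

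The 1 feature past the threshold was not a member. EPlOSAG00000003869, a 53-base feature on chromosome 3 (12950822 to 12950874, minus strand), was listed at 2.18, 4.32 and 4.75 FPKM in pkg Br-cGMP and at 0 in all 3 pkg control libraries, against 0 in all 3 wild type Br-cGMP libraries and 4.03, 4.34 and 7.7 in wild type control. The pattern is of complete separation in opposite directions, but it rests on 1 to 2 reads in each pkg Br-cGMP library and 2 to 3 in each wild type control library. Its adjusted p was 0.00606 with limma and 0.9999 with limma-voom on the reads, and 0.00128 to 0.9999 over all alternatives, and no fold is given since no group exceeds 3 reads in a library.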

How the data were processed

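RNA-seq of total RNA was analysed in 12 libraries, 3 in each of 4 groups, from 1 deposited table per library. The tools named, per the submitters' processing notes, are CASAVA 1.8 and HISAT2, with no build or annotation and no counter given in the sources used here. Values the authors deposited behave as FPKM: multiplied by feature length they are whole multiples of 1 step per library, within 0.01, for 100% of values above 0. The reads recovered in this way, 6667261 to 9438909 per library, set the counting precision. Strand use in counting is not stated there, and genes with near-identical copies, such as histone, ribosomal protein and tubulin genes, are uncertain to that extent.

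From these values log2(FPKM + 1) was fitted with limma 3.58.1 in R 4.3.3, with the 4 group means over 12 libraries and trended, robust moderation, on the 25238 features with at least 1 FPKM in at least 3 libraries. P-values are two-sided and were adjusted over all features tested (Benjamini-Hochberg, threshold 0.05). Errors given as ± are standard errors of the fit. The fold scale understates changes of low genes. The procedure was tested on simulated data, with log-scale noise set below the spread of these libraries, so that test does not show what could be found here. Limma on log2 values was the planned test, with a count model to replace it only if the deposited values were counts. They behave as FPKM, so limma was kept. Tables and plots used Python 3.11.15, numpy 2.4.6, pandas 2.3.3, scipy 1.17.1 and matplotlib 3.10.9.

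Named genes were the 15 members with a symbol and the smallest p in each direction, up to 2 members without a symbol in each direction, up to 4 members of smallest p per list (all, in lists of 5 or fewer), and the identifier taken for PKG with SLR1, GID1 and GAMYB. The members and lists were chosen with earlier results of these data known. CYP734A4, AP25, GLU2 and GLU3 matched a list's pattern by spelling alone and were removed after values had been seen. No library repeated another: chi-square statistics between replicates were 41.4 to 161 per degree of freedom. Replicate numbers are shared between the groups. Deviations of same-numbered libraries correlated at 0.53, 0.52 and 0.47 between the pkg groups, all over 0.1, and at 0.10, 0.14 and -0.06 between the wild type groups. Correlations as high were found between genotypes, at 0.61 for pkg control 1 with wild type control 2, whose numbers differ. Pkg control 3 with wild type control 3 reached 0.67. The labels give no shared batch, so whether the numbers pair the pkg libraries cannot be told from these values.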

Additional observations from a re-analysis of the deposited data

Results flagged for a closer look

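EPlOSAG00000003869, a feature outside the member genes, passed the limma threshold for the difference of the responses, but not that of limma-voom on the reads (adjusted p = 0.9999). It passed the filter of the test only through pkg Br-cGMP and wild type control, the groups where it was above 0. The fitted difference was 4.82 ± 0.41 on the log2(FPKM + 1) scale (limma, adjusted p = 0.00606), with all 3 libraries above control in pkg and all 3 below control in wild type. The size depends on the added constant, at 1.83 with 5 FPKM added and 10.9 with 0.1 FPKM added. It is neither a fold nor a bound, since no library held more than 3 reads of the feature. The cause was not tested.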

How the results depend on the processing

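No member passed the adjusted threshold under any alternative, for the difference of the responses or for either response, nor with the 2 compared groups fitted alone (100 members at an unadjusted p under 0.05 in pkg and 760 in wild type). Features past the threshold for the difference numbered 1 as reported, 2 with no filter or with 0.1 FPKM added, and 0 with 5 FPKM added, with limma-voom, with the replicate block within genotype, without the 3 libraries low in root genes or with member genes fitted alone. With single libraries left out there were 1 to 3. EPlOSAG00000003869 had an adjusted p of 0.11 with 5 FPKM added, 0.2005 without the 3 libraries, 0.3462 with the replicate block within genotype, 0.3653 with replicates 1 and 2 alone and 0.9999 with limma-voom; the cause was not tested. The replicate block across all groups left 1 feature, and neither block changed the call of any member. The block moved the members at an unadjusted p under 0.05 to 159 (within genotype) and 127 (across groups) for the difference, 363 and 304 for pkg, and 896 and 755 for wild type. That number for the difference was 37 without wild type Br-cGMP 1, 38 without wild type Br-cGMP 2, 251 without pkg Br-cGMP 2 and 256 without pkg Br-cGMP 1, the extremes over single libraries. The difference of SLR1 was -0.006 to 0.548 and that of OS02G0281000 -0.305 to 0.245 with single libraries left out. Of 725 alternative list medians 86 had the other sign. No filter, member genes fitted alone, the replicate blocks and the fit without trended and robust moderation leave every estimate as it is. List medians cannot change sign in those settings. The edgeR and DESeq2 fits planned for whole counts were not run, as the deposited unit was taken as FPKM. Limma-voom was run on the recovered reads instead. The reads per library limit what low genes can show, and 3 libraries per group limit the rest; a p that misses the threshold does not show equal responses.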
